A study of Homo sapiens with 6 samples.

Results

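The genes described here encode the SOX and T-box transcription factors, 33 listed genes (18 SOX and 15 T-box) out of 19974 protein-coding genes on chromosomes 1 to 22 and X. They were chosen by name and not by any measured value, although earlier results of these data were known at that time. Each gene was read as a window that holds the gene and 5 kb on both sides, and the measure was the number of bases under distinct peaks in that window. ACHN cells are a human renal carcinoma line, and the study set cells labelled ZCCHC8-KO (titles marked sgZ8) against cells labelled ZCCHC8-WT (titles marked Ctrl). ZCCHC8 is a subunit of NEXT, a nuclear complex that hands RNA to the exosome, and the series asks how NEXT bears on H3K27me3. Each genotype had 1 ChIP library for H3K27me3, 1 for EZH2 and 1 input library, and the peak lists of both antibodies were made against the same input of that genotype. The sources used here do not say whether the ZCCHC8-KO cells were a single clone.

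The data are 4 peak lists, in which lines repeated word for word were counted once. The H3K27me3 lists held 69840 peaks (23.2 Mb) in KO cells and 93095 peaks (31.7 Mb) in WT cells. The EZH2 lists held 19566 peaks (5.39 Mb) in KO cells and 30734 peaks (7.63 Mb) in WT cells. Their read depths are not given, so a window without a peak is not shown to lack the mark. Each peak carries a score by the authors, undefined in the sources used here, which started at 4 in KO lists and at 5 in WT lists. With 1 library per group there was no replicate to set a difference against, and no test was run. In a cell population, fewer marked cells and less mark per cell cannot be told apart.

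EZH2 is the enzyme of the Polycomb complex PRC2, which methylates lysine 27 of histone H3, and H3K27me3 accompanies the silencing of developmental regulators outside the tissues that use them. SOX factors bind DNA through an HMG box and T-box factors through the T domain. Both families direct the fate of neural, mesodermal, endodermal, skeletal and cardiac cells, and their CpG-rich promoters are classical Polycomb targets in stem cells and in many differentiated cells.

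Promoter sequence, 250 bases before to 50 bases after the start site, was found for 21 of the 33 genes in RefSeq (GRCh38.p14). Below are 4 promoters, each given 5′ to 3′ on the strand of the gene, for genes with peaks of both antibodies in both genotypes. Capitals mark the bases under an EZH2 peak of the KO list. SOX5 and TBX5 are shown because an EZH2 peak lay on the promoter itself, and EOMES and SOX2 because EZH2 peaks of both genotypes lay within 5 kb of the start site with none on these bases. The SOX5 promoter is chr12:24562442-24562741 (minus strand), TBX5 is chr12:114407963-114408262 (minus strand), EOMES is chr3:27722274-27722573 (minus strand) and SOX2 is chr3:181711675-181711974 (plus strand).
SOX5: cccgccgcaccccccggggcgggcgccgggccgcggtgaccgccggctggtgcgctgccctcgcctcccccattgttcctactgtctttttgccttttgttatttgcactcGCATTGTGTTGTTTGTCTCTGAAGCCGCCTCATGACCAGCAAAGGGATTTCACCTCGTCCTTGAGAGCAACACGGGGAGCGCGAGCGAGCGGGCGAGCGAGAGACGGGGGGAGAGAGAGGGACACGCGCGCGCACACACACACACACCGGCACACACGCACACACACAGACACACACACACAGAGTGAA
TBX5: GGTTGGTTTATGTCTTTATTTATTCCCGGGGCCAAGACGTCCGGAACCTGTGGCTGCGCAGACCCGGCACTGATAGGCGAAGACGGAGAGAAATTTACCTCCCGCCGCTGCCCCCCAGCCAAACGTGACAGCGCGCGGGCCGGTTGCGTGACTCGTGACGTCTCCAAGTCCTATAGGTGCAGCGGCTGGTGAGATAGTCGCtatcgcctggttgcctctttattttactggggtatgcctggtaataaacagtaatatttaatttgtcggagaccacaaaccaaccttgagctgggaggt
EOMES: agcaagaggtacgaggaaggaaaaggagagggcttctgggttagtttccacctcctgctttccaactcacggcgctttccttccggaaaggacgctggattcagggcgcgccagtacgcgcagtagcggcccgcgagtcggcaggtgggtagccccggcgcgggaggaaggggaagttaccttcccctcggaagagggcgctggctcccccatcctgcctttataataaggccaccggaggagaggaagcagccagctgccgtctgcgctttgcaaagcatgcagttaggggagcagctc
SOX2: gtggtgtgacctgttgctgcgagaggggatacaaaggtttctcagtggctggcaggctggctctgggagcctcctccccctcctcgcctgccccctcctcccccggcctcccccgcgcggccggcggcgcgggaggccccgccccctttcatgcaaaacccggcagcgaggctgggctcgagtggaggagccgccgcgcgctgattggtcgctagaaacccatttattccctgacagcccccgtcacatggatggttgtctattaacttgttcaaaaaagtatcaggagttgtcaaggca

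EZH2 peaks covered 189 of the 300 bases at SOX5 in KO cells and 162 in WT cells. At TBX5 they covered 201 bases in KO cells and 0 in WT cells. The ratio of observed to expected CG pairs was 0.958 at SOX5, 0.951 at TBX5, 0.744 at EOMES and 0.667 at SOX2, and its median was 0.745 over the 21 promoters and 0.763 over all 15813 coding promoters. The median was 0.723 over members with an EZH2 peak in their window and 0.819 over members with none. The letters AACAAT, a core to which SOX proteins bind, occurred on either strand in 2 of 21 promoters (SOX5 and TBR1) and in 7.04% of all promoters. The letters GGTGTGA, the T-box core, occurred on either strand in 1 of 21 (SOX2) and in 3.26% of all. These matches are a description of the letters only.

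Counted over the whole families, EZH2 peaks lay at 12 of 33 genes (36.4%) in KO cells and at 17 (51.5%) in WT cells. Over all coding genes the shares were 18.4% in KO cells and 27% in WT cells. H3K27me3 peaks lay at 13 of 33 genes (39.4%) in KO cells and at 15 (45.5%) in WT cells, against 23.2% of all genes in KO cells and 26.1% in WT cells. Both families were thus marked more often than coding genes as a whole in all 4 lists, and the WT lists marked more of them than the KO lists, as they did over all genes. Long genes catch peaks more often, and most windows of these families are short. Among windows of up to 120 kb, 13.1% of all genes had an EZH2 peak in KO cells and 20.2% in WT cells. Without SOX5 and SOX6, the only members above that length, EZH2 peaks lay at 10 of 31 genes (32.3%) in KO cells and at 15 (48.4%) in WT cells. H3K27me3 peaks lay at 11 of these 31 (35.5%) in KO cells and at 13 (41.9%) in WT cells, against 19.7% of all genes of that length in KO cells and 21.4% in WT cells. By family, EZH2 peaks were listed at 6 of 18 SOX genes in KO cells and 9 in WT cells, and at 6 of 15 T-box genes in KO cells and 8 in WT cells. H3K27me3 peaks were listed at 6 of 18 SOX genes in KO cells and 8 in WT cells, and at 7 of 15 T-box genes in each genotype.

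The marked genes were only partly the same in both genotypes. For EZH2, 10 genes were marked in both, TBX3 and TBX4 in KO cells alone, and SOX7, SOX13, SOX17, TBX15, TBX19, TBX20 and TBX21 in WT cells alone. For H3K27me3, 12 genes were marked in both, TBX19 in KO cells alone, and SOX9, SOX30 and TBX3 in WT cells alone. Over all coding genes, EZH2 marked 2525 in both genotypes, 1151 in KO cells alone and 2872 in WT cells alone, and H3K27me3 marked 3628 in both, 1007 in KO cells alone and 1579 in WT cells alone. Of the genes marked in either genotype, the share marked in both was higher among the members than among all genes for each antibody, a difference that was not tested. Most genes listed in a single genotype had 1 or a few peaks there. SOX2, SOX5, SOX6, SOX21, TBX5 and EOMES were marked in all 4 lists.

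A difference between genotypes was called where covered bases differed at least 2-fold and by at least 500 bp. Called fewer in KO cells were 3 genes for EZH2 (SOX6, SOX7 and SOX21; 9.09% of the 33, against 5.20% of all genes) and 2 genes for H3K27me3 (SOX9 and EOMES; 6.06%, against 6.22%). Called more in KO cells were 1 gene for EZH2 (SOX2; 3.03%, against 1.52% of all genes) and 0 genes for H3K27me3 (against 3.15%). Among all genes with windows of up to 120 kb, 2.79% were called fewer and 1.19% more for EZH2, and 4.64% fewer and 2.97% more for H3K27me3. Without SOX5 and SOX6, 2 of 31 members were called fewer and 1 more for EZH2, and 2 fewer and 0 more for H3K27me3. The members' shares rest on 0 to 3 genes, too few to be told from those of all genes. No difference between these shares was tested. The plot of covered bases by gene shows every value behind these counts.

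**Figure D1:**
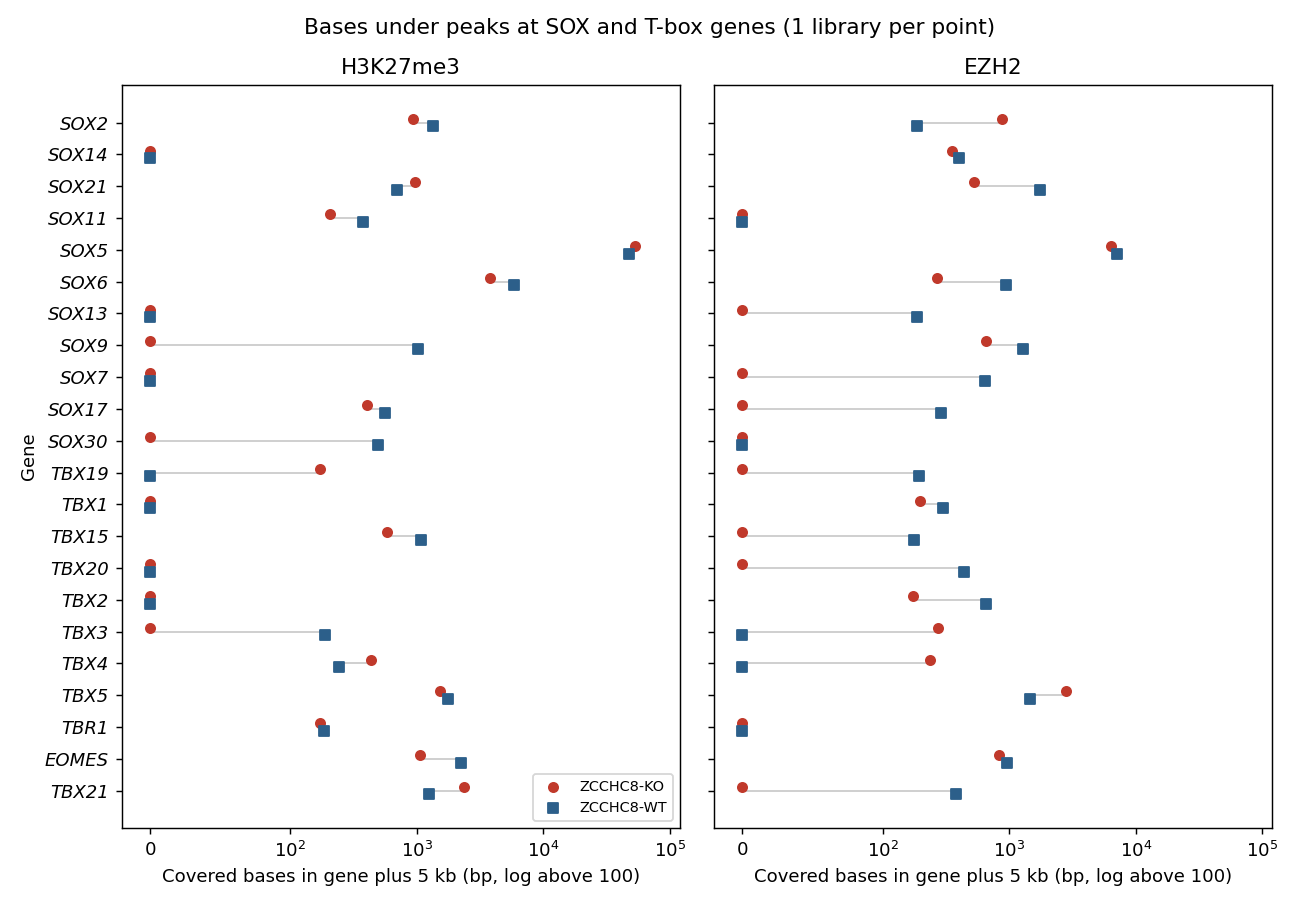
Bases under peaks in each gene plus 5 kb (x axis, bp, linear up to 100 and logarithmic above) for the genes with a peak in at least 1 list, H3K27me3 on the left and EZH2 on the right; each point is 1 library, red for ZCCHC8-KO and blue for ZCCHC8-WT. SOX5 stands apart in every list, with 53193 bp of H3K27me3 in KO cells and 47626 bp in WT cells, and most other genes lie below 2000 bp or at 0 in 1 genotype.

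Among the SOXB genes, SOX2, which maintains pluripotent and neural progenitor cells, was marked in all lists, while its close relative SOX1, which acts in neural progenitors, had no peak in any. H3K27me3 covered 928 bp (3 peaks) of the SOX2 window in KO cells and 1330 bp (4 peaks) in WT cells, of which 129 bp were shared. EZH2 covered 884 bp (3 peaks) in KO cells and 185 bp (1 peak) in WT cells, a ratio of 4.78, with no shared base. Over the whole lists, 7.97% of KO and 5.13% of WT EZH2 peaks overlapped a peak of the other genotype. The KO list had more EZH2 at SOX2, but its 3 peaks scored 4 or 5 and the WT peak scored 11. With peaks below a score of 7 left out of both lists, the direction turned, to 0 bp in KO cells against 185 bp in WT cells. Over the whole lists the same cut lowered the KO/WT ratio of EZH2-covered bases from 0.706 to 0.279. SOX2 lies within the long non-coding gene SOX2-OT, and peaks there belong to both.

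SOX14 and SOX21 form the SOXB2 group, which counteracts SOXB1 factors in neural cells. At SOX21, EZH2 covered 525 bp (2 peaks) in KO cells and 1744 bp (6 peaks) in WT cells, a ratio of 0.301, and no base was shared. Over the whole lists, 7.97% of KO and 5.13% of WT EZH2 peaks overlapped a peak of the other genotype. H3K27me3 at SOX21 covered 962 bp (2 peaks) in KO cells and 699 bp (3 peaks) in WT cells. The 2 antibodies thus differed in direction at this gene. The 316-bp WT peak at its 3′ end lay wholly within a KO peak of 593 bp. SOX14 had EZH2 only, with 355 bp (2 peaks) in KO cells and 401 bp (2 peaks) in WT cells. In each genotype 1 of these peaks lay below the gene's lower end, with 121 bp shared between genotypes.

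The SOXC genes SOX4, SOX11 and SOX12, which act in neuronal and mesenchymal progenitors, were almost free of peaks. SOX11 had 205 bp of H3K27me3 (1 peak) in KO cells and 376 bp (2 peaks) in WT cells, at different positions and without EZH2. SOX4 and SOX12 had no peak in any list.

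The SOXD genes encode long SOX proteins without a transactivation domain of their own, and SOX5 and SOX6 act beside SOX9 in cartilage. SOX5 carried most of the H3K27me3-covered bases of the 33 genes, and more EZH2-covered bases than any other of them. H3K27me3 covered 53193 bp of its 1043147-bp window (157 peaks, 5.1%) in KO cells and 47626 bp (144 peaks, 4.57%) in WT cells. EZH2 covered 6361 bp (20 peaks) in KO cells and 7155 bp (25 peaks) in WT cells. By H3K27me3-covered bases SOX5 ranked 5 of 19974 windows in KO cells and 17 in WT cells. Among the 327 windows of 500 kb or longer it ranked 5 by covered share in KO cells and 16 in WT cells.

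The KO/WT ratio of H3K27me3-covered bases at SOX5 was 1.12, while it was 0.732 over the whole lists and 0.691 on chromosome 12. The direction at SOX5 turned with the score threshold. With peaks of score 7 or more only, H3K27me3 covered 14987 bp of SOX5 in KO cells and 34363 bp in WT cells, a ratio of 0.436, against 0.362 over the whole lists. At a score of 5 or more, the bases were 47604 bp in KO cells and 47626 bp in WT cells.

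**Figure D2:**
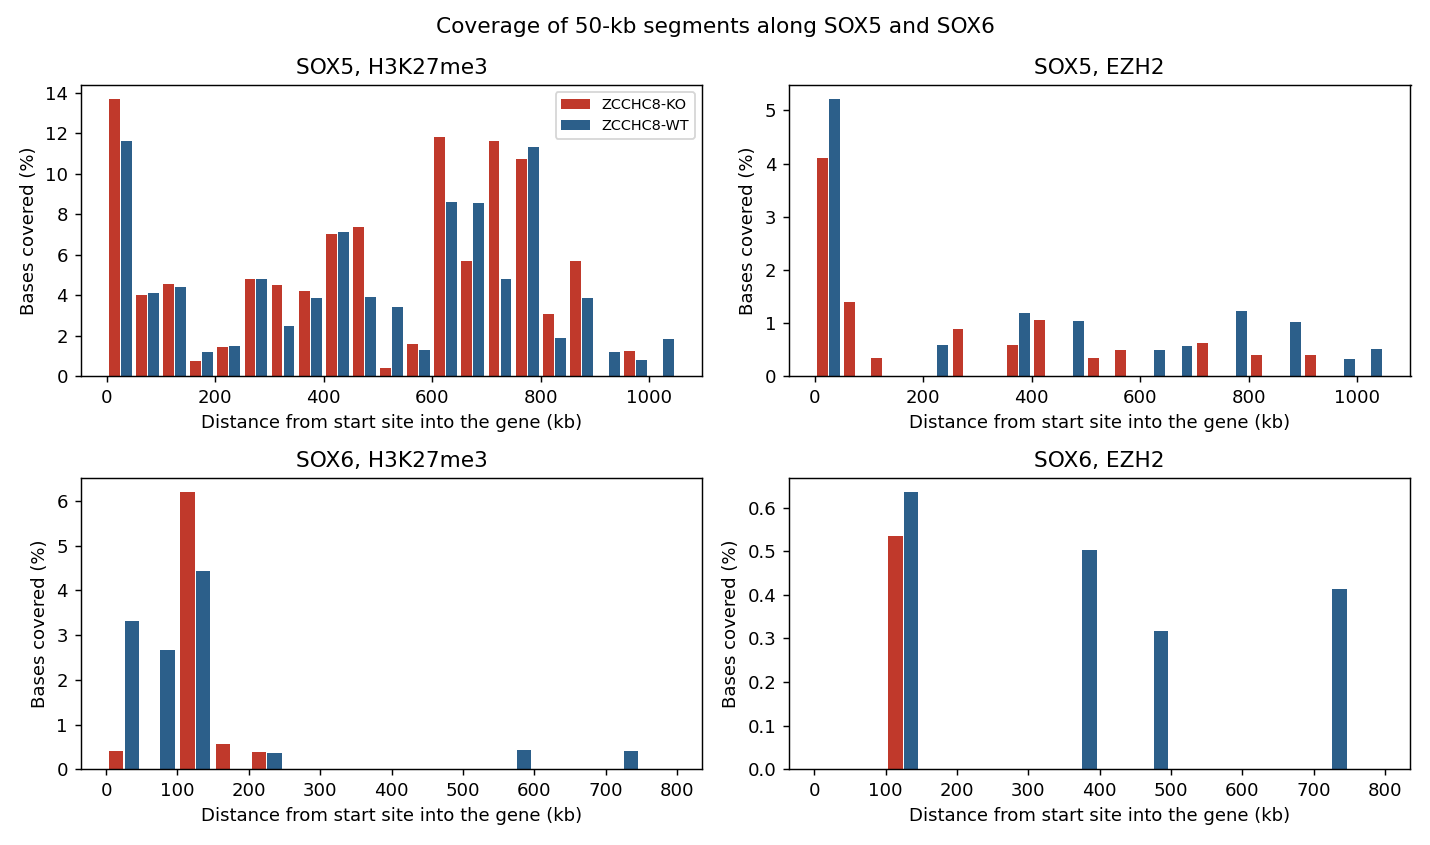
Share of bases under peaks (y axis, percent) in 50-kb segments along SOX5 and SOX6, by distance from the start site into the gene (x axis, kb), for H3K27me3 and EZH2; red bars are ZCCHC8-KO and blue bars ZCCHC8-WT, 1 library each. At SOX5 the first segment is highest for both antibodies, and H3K27me3 has a further stretch of tall bars between 600 and 800 kb; SOX6 has H3K27me3 mainly within 150 kb of its start.

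Along SOX5, the first 50 kb from the start site had 13.7% of bases under H3K27me3 peaks in KO cells and 11.6% in WT cells. EZH2 covered 4.1% of the same segment in KO cells and 5.22% in WT cells. H3K27me3 was high again far inside the gene. Between 600 and 650 kb from the start it covered 11.8% in KO cells and 8.6% in WT cells, between 650 and 700 kb 5.66% in KO cells and 8.56% in WT cells, between 700 and 750 kb 11.6% in KO cells and 4.79% in WT cells, and between 750 and 800 kb 10.7% in KO cells and 11.3% in WT cells. EZH2 covered at most 1.22% of any segment between 600 and 800 kb. In the last segment, from 1000 kb to the gene's end, H3K27me3 covered 0% in KO cells and 1.81% in WT cells.

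Near the start of SOX5 the peaks of both genotypes coincided. Distance bands were chosen after the positions were seen. Within 5 kb of the start, 4 of 4 H3K27me3 peaks of KO cells overlapped a WT peak, and 6 of 6 WT peaks overlapped a KO peak. For EZH2, 4 of 6 KO peaks and 4 of 7 WT peaks did so. Beyond 20 kb, 28 of 149 H3K27me3 peaks of KO cells overlapped a WT peak, and 27 of 133 WT peaks overlapped a KO peak. The whole-list shares for H3K27me3 were 21.4% in KO cells and 15.9% in WT cells. For EZH2 the counts beyond 20 kb were 0 of 13 KO peaks and 0 of 16 WT peaks. These counts allow shares of up to 23.1% in KO cells and up to 18.8% in WT cells. The whole-list shares for EZH2, 7.97% in KO cells and 5.13% in WT cells, lie below those limits. The far EZH2 peaks of SOX5 were thus too few to be told from the whole lists. The EZH2 peaks that recurred across genotypes at SOX5 lay within 20 kb of its start.

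**Figure D3:**
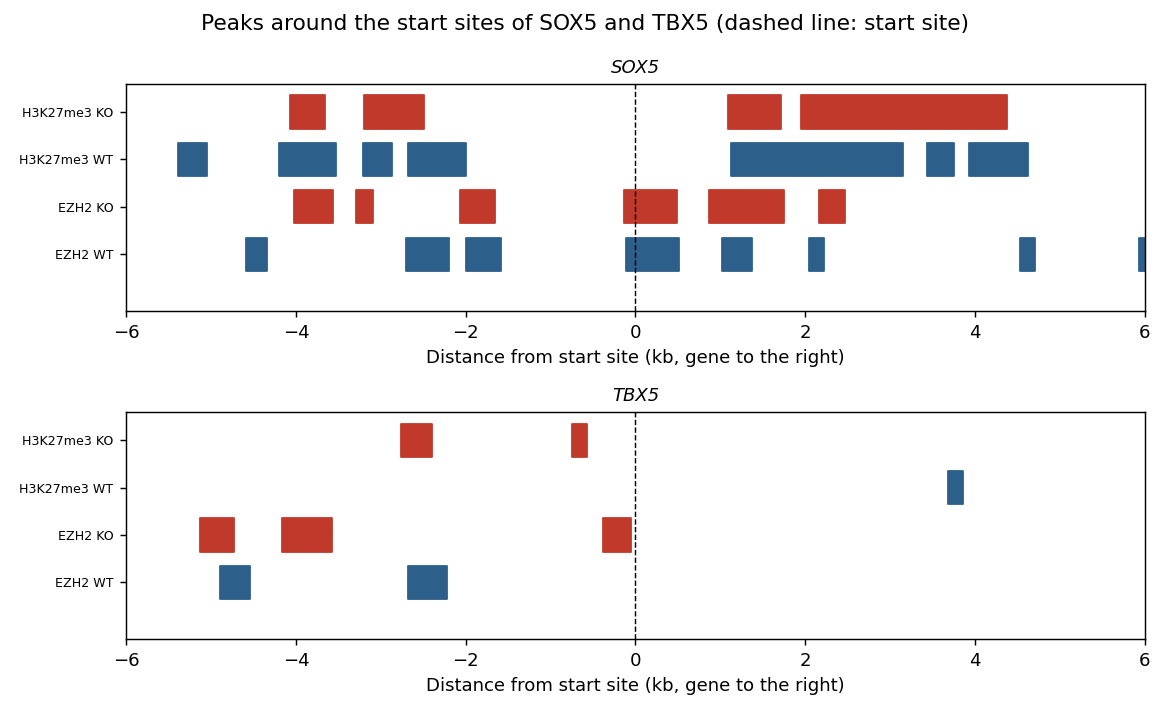
Peaks of each list (a line of bars per list, KO above WT for each antibody) by distance from the start site in kb, gene to the right, at SOX5 and TBX5; red is ZCCHC8-KO and blue ZCCHC8-WT. At SOX5 an EZH2 peak lies over the start in both genotypes with H3K27me3 peaks on both sides of it; at TBX5 an EZH2 peak of KO cells begins 50 bp upstream of the start, with no WT peak there.

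The EZH2 peak over the SOX5 start was chr12:24562008-24562630 (623 bp, score 7) in KO cells and chr12:24561984-24562603 (620 bp, score 11) in WT cells, with 596 bp shared. H3K27me3 was not listed on the start itself, and its nearest peak was 1092 bp away in KO cells and 1122 bp away in WT cells. It flanked the start on both sides in both genotypes. On the gene side the widest H3K27me3 peak was 2427 bp (score 12) in KO cells, chr12:24558120-24560546, and 2031 bp (score 12) in WT cells, chr12:24559339-24561369.

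SOX6, which works with SOX5, had a different layout. H3K27me3 covered 3777 bp (12 peaks) in KO cells and 5810 bp (19 peaks) in WT cells, a ratio of 0.650. EZH2 covered 268 bp (1 peak) in KO cells and 935 bp (5 peaks) in WT cells, a ratio of 0.287. No peak of any list lay within 20 kb of its start. From 20 to 100 kb inside the gene there was 1 H3K27me3 peak (204 bp) in KO cells and there were 9 (2996 bp) in WT cells. From 100 to 135 kb there were 9 peaks (3099 bp) in KO cells and 7 (2217 bp) in WT cells, 4 of them shared in each list. The difference in H3K27me3 bases at SOX6 was not called. In these bands, also chosen after the positions were seen, the fewer bases of KO cells lay mainly between 20 and 100 kb. EZH2 had no peak there in either genotype. Its WT peaks lay at 100 to 135 kb (2 peaks) and farther inside (3 peaks), and its KO peak at 100 to 135 kb. The EZH2 peak of KO cells scored 5 and those of WT cells 5 to 7. With the lists cut to an equal number of peaks, the EZH2 direction turned, to 268 bp in KO cells against 0 bp in WT cells. That cut dropped the lowest-scoring WT peaks and left the shorter KO list whole. SOX13, a SOXD gene active in lymphocyte and neural development, had no H3K27me3 peak and 1 EZH2 peak of 187 bp in WT cells.

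Of the SOXE genes, SOX9, which drives cartilage and testis formation, had peaks, and SOX8 and SOX10, which act in neural crest and glia, had none. H3K27me3 at SOX9 covered 0 bp in KO cells and 1019 bp (3 peaks) in WT cells. EZH2 covered 657 bp (2 peaks) in KO cells and 1286 bp (3 peaks) in WT cells, with 348 bp shared. Both EZH2 groups lay just below the gene's lower end. The WT EZH2 peak chr17:72118986-72119587 (602 bp, score 15) held the whole of a 453-bp H3K27me3 peak, and the KO EZH2 peak chr17:72118874-72119302 (429 bp, score 8) overlapped no H3K27me3. In KO cells the nearest H3K27me3 peak was 8070 bp from the gene. Farther out, from the window's edge to 100 kb from the gene, H3K27me3 covered 12352 bp (36 peaks) in KO cells and 10609 bp (31 peaks) in WT cells. H3K27me3 of both genotypes was thus listed around the SOX9 window, and within the gene itself neither list had an H3K27me3 base.

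The SOXF genes build vessels and, for SOX17, endoderm. SOX7 had EZH2 only in WT cells (638 bp, 2 peaks, both outside the gene), and 0 bp in KO cells. SOX17 had 402 bp of H3K27me3 (1 peak) in KO cells and 561 bp (2 peaks) in WT cells, with 3 bp shared. Its EZH2 covered 0 bp in KO cells and 291 bp (1 peak) in WT cells. SOX18 had no peak. SOX15, a single-gene group, had none either, and SOX30, a factor of sperm development, had 490 bp of H3K27me3 in WT cells and 0 bp in KO cells.

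Among T-box genes, the TBX2 group patterns limbs and heart. Its member TBX5 had the most EZH2-covered bases of the T-box genes, while by covered share EOMES stood above it (4.91% in KO cells and 5.68% in WT cells). TBX5, needed for the forelimb and the heart, had 2792 bp of EZH2 (8 peaks) in KO cells and 1451 bp (4 peaks) in WT cells, a ratio of 1.92 that missed the 2-fold rule. Of these bases 162 were shared. H3K27me3 covered 1518 bp (5 peaks) in KO cells and 1764 bp (6 peaks) in WT cells, and no base was shared. Over the whole lists, 21.4% of KO and 15.9% of WT H3K27me3 peaks overlapped a peak of the other genotype. The KO EZH2 peak on the promoter, chr12:114408062-114408392 (331 bp, score 5), had no WT counterpart. With peaks of score 7 or more, EZH2 at TBX5 covered 985 bp in KO cells and 1136 bp in WT cells, the opposite order. Over the whole lists that threshold lowered the KO/WT ratio of EZH2-covered bases from 0.706 to 0.279. With the lists cut to an equal number of peaks, EZH2 covered 2792 bp in KO cells and 1136 bp in WT cells. That cut removed WT peaks only, those of lowest score. Within the gene alone EZH2 covered 1807 bp in KO cells and 633 bp in WT cells. Both of these differences pass the rule. The non-coding gene TBX5-AS1 overlaps this window.

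TBX3, which acts in limb and breast development, lies beyond TBX5 on chromosome 12, and 262 kb lie between the pair. That stretch held 20 H3K27me3 peaks in each genotype, covering 7705 bp in KO cells and 6363 bp in WT cells. EZH2 covered 3076 bp (11 peaks) there in KO cells and 3791 bp (15 peaks) in WT cells. By share of bases, EZH2 covered 1.17% of the stretch in KO cells and 1.45% in WT cells, less than the 4.33% of the TBX5 window in KO cells and 2.25% in WT cells. TBX3 itself had 273 bp of EZH2 in KO cells and 0 bp in WT cells, and 0 bp of H3K27me3 in KO cells and 189 bp in WT cells. The other linked pair, TBX2 and TBX4 on chromosome 17, is 43 kb apart. Between them H3K27me3 covered 2000 bp (7 peaks) in KO cells and 1127 bp (5 peaks) in WT cells, and EZH2 had no peak in either genotype. TBX2, a repressor that holds back senescence, had 174 bp of EZH2 (1 peak) in KO cells and 653 bp (3 peaks) in WT cells, and no H3K27me3. TBX4, a hindlimb factor, had 433 bp of H3K27me3 (2 peaks) in KO cells and 242 bp (1 peak) in WT cells. Its EZH2 covered 235 bp in KO cells and 0 bp in WT cells.

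In the TBR1 group, EOMES was marked in all 4 lists. This gene, which specifies endoderm and acts in T and NK cells, had 1053 bp of H3K27me3 (3 peaks) in KO cells and 2239 bp (4 peaks) in WT cells, a ratio of 0.470. EZH2 there covered 823 bp (3 peaks) in KO cells and 952 bp (3 peaks) in WT cells. The widest WT H3K27me3 peak, chr3:27726527-27727809 (1283 bp, score 10), lay upstream of the start and held the whole 593-bp KO peak chr3:27727052-27727644 (score 6). The upstream H3K27me3 of EOMES was thus in the same place in both genotypes and narrower in the KO list. With the lists cut to an equal number of peaks the call was lost, with 1053 bp in KO cells and 2021 bp in WT cells. That cut removed low-scoring WT peaks only.

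TBX21, which encodes T-bet, the factor of type 1 helper T cells, ran the other way over its whole window. H3K27me3 covered 2372 bp (4 peaks) in KO cells and 1242 bp (5 peaks) in WT cells, a ratio of 1.91 that missed the 2-fold rule. The KO peak chr17:47748880-47749995 (1116 bp, score 10), beyond the gene's 3′ end, held a WT peak of 331 bp. Just upstream of the start only the WT list had H3K27me3, in peaks of 177 bp and 171 bp. Within the gene alone H3K27me3 covered 214 bp in KO cells and 178 bp in WT cells. Farther out, up to 100 kb from the gene, H3K27me3 covered 5037 bp in KO cells and 1545 bp in WT cells, and over chromosome 17 the KO/WT ratio was 1.09. EZH2 covered 0 bp in KO cells and 381 bp (1 peak) in WT cells. TBR1, a factor of cortical neurons, had 173 bp of H3K27me3 in KO cells and 186 bp in WT cells, at different places.

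**Figure D4:**
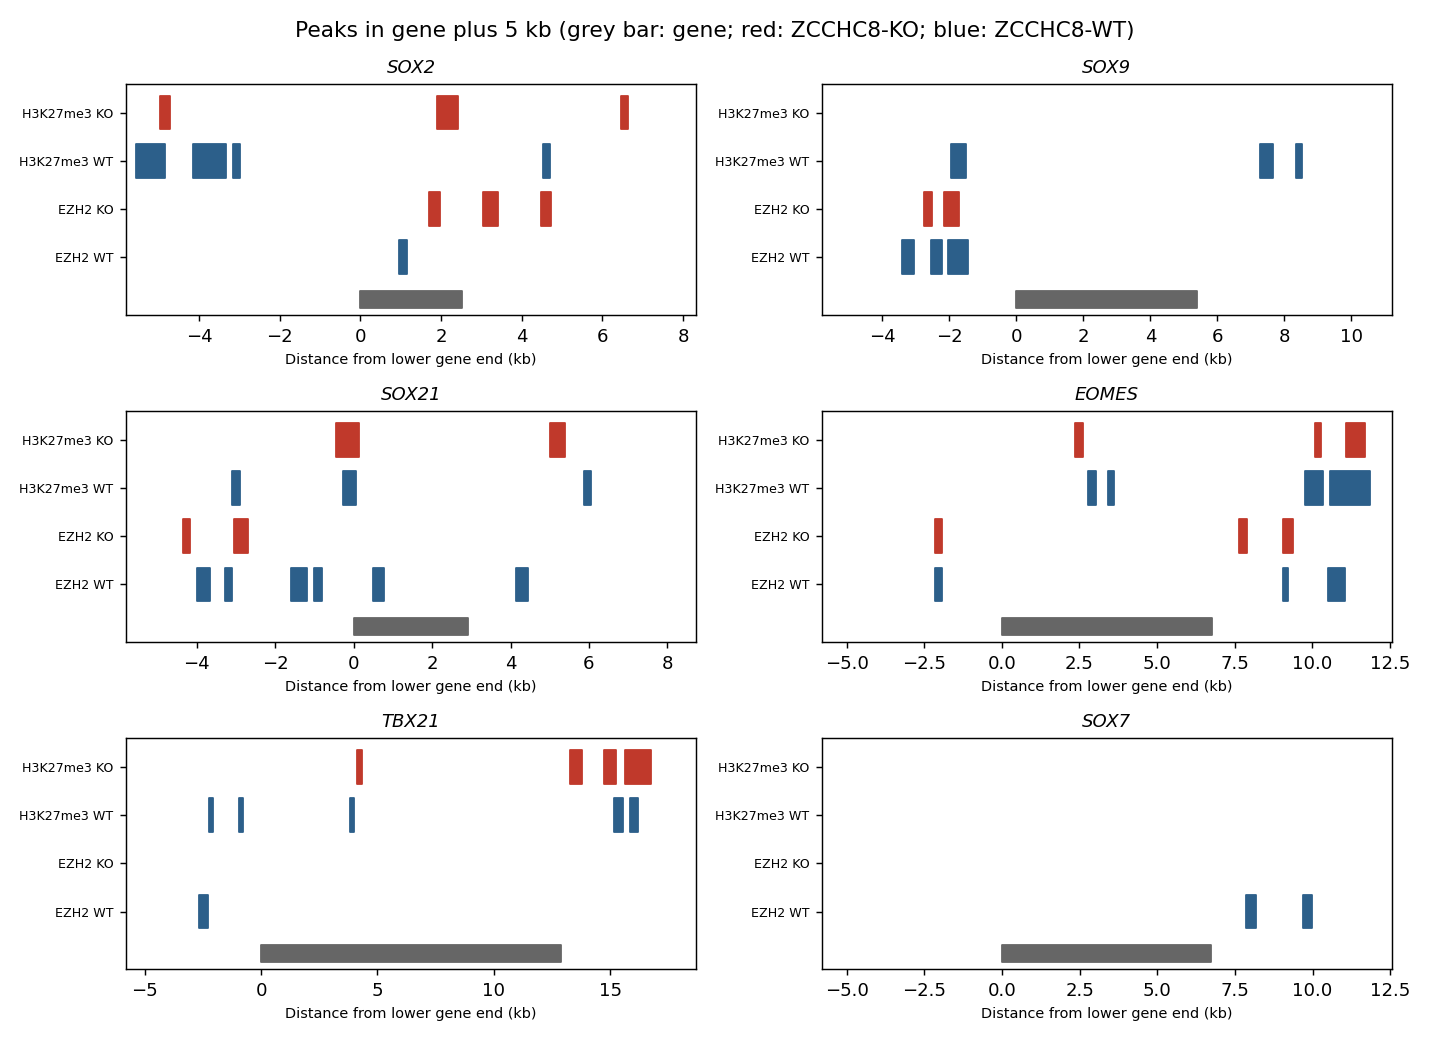
Peaks of each list in gene plus 5 kb, by distance from the gene's lower end in kb (x axis), for SOX2, SOX9, SOX21, EOMES, TBX21 and SOX7; the grey bar is the gene, red bars are ZCCHC8-KO peaks and blue bars ZCCHC8-WT peaks. At SOX9 the H3K27me3 line is empty in KO cells, and at EOMES the upstream H3K27me3 peak of KO cells lies within the wider WT peak. At SOX21 the EZH2 peaks of the genotypes do not overlap. Over the whole lists, 7.97% of KO and 5.13% of WT EZH2 peaks overlapped a peak of the other genotype.

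The TBX1 group and the T group had few bases. TBX15, a factor of the skeleton and of muscle, had 582 bp of H3K27me3 (2 peaks) in KO cells and 1078 bp (4 peaks) in WT cells. Its EZH2 covered 0 bp in KO cells and 177 bp (1 peak) in WT cells. TBX1, the pharyngeal factor, had EZH2 alone, 198 bp in KO cells and 301 bp in WT cells, with 52 bp shared. TBX20, a heart factor on chromosome 7, had no H3K27me3 in its window, and EZH2 covered 0 bp in KO cells and 442 bp (2 peaks) in WT cells. In the surroundings of TBX20 up to 100 kb, H3K27me3 covered 3540 bp in KO cells and 14196 bp in WT cells, and over chromosome 7 the KO/WT ratio of H3K27me3-covered bases was 0.342. TBX19, a pituitary factor, had 170 bp of H3K27me3 in KO cells and 0 bp in WT cells, and 0 bp of EZH2 in KO cells and 192 bp in WT cells.

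No peak of any list was found at 11 genes, which were SOX1, SOX4, SOX8, SOX10, SOX12, SOX15, SOX18, TBX6, TBX10, TBX18 and TBXT. TBXT encodes brachyury, the mesoderm and notochord factor, TBX6 acts in somites, and TBX18 in the ureter and heart. For these genes the nearest EZH2 peak lay a median of 103 kb away in KO cells and 55.4 kb away in WT cells. The nearest H3K27me3 peak lay a median of 132 kb away in KO cells and 72 kb away in WT cells. Marked and unmarked genes occurred in the same subgroup, as with SOX2 and SOX1, SOX9 and SOX8, or TBX15 and TBX18.

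Within 5 kb of the 21 known start sites, H3K27me3 peaks lay at 9 genes (42.9%) in KO cells and 7 (33.3%) in WT cells, against 12.3% of 15813 coding genes in KO cells and 14.1% in WT cells. EZH2 peaks lay at 6 genes (28.6%) in KO cells and 9 (42.9%) in WT cells, against 6.55% in KO cells and 9.64% in WT cells. TBX19 and TBR1 were in the H3K27me3 count of KO cells alone. For EZH2, TBX4 was in the count of KO cells alone, and SOX21, TBX19, TBX20 and TBX21 in that of WT cells alone.

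The share of EZH2 peaks found in both genotypes was higher at these genes than in the whole lists. Of 45 KO EZH2 peaks, 12 overlapped a WT peak (26.7%, exact 95% Clopper-Pearson interval 14.6 to 41.9), against 7.97% of the whole KO list. Of 62 WT EZH2 peaks, 12 overlapped a KO peak (19.4%, 10.4 to 31.4), against 5.13% of the whole WT list. For H3K27me3, 44 of 194 KO peaks did so (22.7%, 17 to 29.2), against 21.4% of the list, and 46 of 201 WT peaks (22.9%, 17.3 to 29.3), against 15.9%. The intervals cover counting error only, and peaks of 1 gene are not independent. SOX5 held 20 of the 45 KO EZH2 peaks and 25 of the 62 WT EZH2 peaks. Without SOX5 and SOX6 the EZH2 shares were 29.2% (7 of 24) in KO cells and 21.9% (7 of 32) in WT cells. Of KO EZH2 peaks, 6 of 12 with scores of 7 to 9 were shared and 5 of 32 with scores of 4 to 6. Of WT EZH2 peaks, 5 of 12 with scores of 10 or more were shared, 4 of 31 with scores of 7 to 9 and 3 of 19 with scores of 4 to 6.

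Most EZH2 peaks overlapped no H3K27me3 peak. Of EZH2 peaks at these genes, 9 of 45 (20%, 9.58 to 34.6) overlapped an H3K27me3 peak in KO cells and 10 of 62 (16.1%, 8.02 to 27.7) in WT cells. Over the whole lists the shares were 19% in KO cells and 14% in WT cells. At the level of genes, 7 genes had peaks of both antibodies in KO cells and 10 in WT cells. So a gene could carry both marks with no base in common, as SOX6 did in both genotypes and SOX21 did too.

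Of the 33 genes, 11 share their window with another coding gene, and 6 of these have peaks (SOX6, SOX13, SOX17, SOX30, TBX1 and TBR1). A peak in such a window was counted for the member wherever it lay. The cell line label was read against fixed genes. Of 10 genes active in kidney epithelium, H3K27me3 was listed at 1 in each genotype (CDH6), against 23.2% of all genes in KO cells and 26.1% in WT cells. EZH2 was listed at CDH6 in KO cells (1215 bp), and at CDH6 (1803 bp) and KRT8 (190 bp) in WT cells. The EZH2 shares over all genes were 18.4% in KO cells and 27% in WT cells. PAX8, PAX2 and EPCAM had no peak in any list. Differences from the shares over all genes were not tested. Of 10 housekeeping genes, none had a peak of either antibody in either genotype. ZCCHC8 itself had no peak in any list, and these files hold no RNA or protein value that would check the knockout.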

How the data were processed

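ACHN chromatin was immunoprecipitated after formaldehyde fixation and sonication and sequenced from both fragment ends, per the labels' protocols. The submitters' processing notes name cutadapt 1.9.3, Bowtie2 2.2.4 and the build hg38. Neither the peak caller nor the depth is stated in the sources used here. The deposited peak lists gave 1-based positions, a length and the authors' score, which was used to rank or filter peaks. Scores of KO and WT peaks were also set side by side and cut at the same value. Whether scores compare between lists is not known. The median score was 5 in KO cells and 7 in WT cells for EZH2, and 6 in KO cells and 7 in WT cells for H3K27me3. Peak names carry a threshold of 1e-3.

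Identical lines were removed and bases under peaks were summed per gene plus 5 kb, with gene positions and promoters from RefSeq GRCh38.p14. Groups came from the title and genotype labels. Overlap meant at least 1 bp. Python 3.11.15, NumPy 2.4.6, pandas 2.3.3, SciPy 1.17.1 and matplotlib 3.10.9 were used. Covered bases were checked against a base-by-base count in some windows. The calling code was run on WT lists with all peaks of some windows removed, where a call of fewer follows from the rule. Calls of more were not tried. The genes and lists were chosen with earlier results of these data known. All 33 genes are accounted for; those with 1000 bp or more in any list are given in full for every list, and values of further genes were chosen after they were seen. Promoters were eligible at genes with peaks of both antibodies in both genotypes, outside chromosome 8, by EZH2-covered bases; 4 of the 6 eligible are printed, picked by where their peaks lay. Alternatives changed the score threshold, the number of peaks per list, the window, the overlap and the inclusion of SOX5 and SOX6. For equal numbers of peaks, the best-scoring WT peaks were kept up to the number in the KO list. The KO list stayed whole, so its low-scoring peaks were set against higher-scoring WT peaks. The inputs have no list of their own and are not analysed here.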

Additional observations from a re-analysis of the deposited data

How the results depend on the processing

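No paired analysis was possible because each group had 1 library. Of the 76 alternative values of the main counts and shares, 57 stayed within 1.5 times the count or within the interval of the share, and 19 moved; the causes were not tested. With genes alone, without flanks, H3K27me3 was listed at 9 genes in WT cells, and EZH2 at 6 in KO cells and 10 in WT cells; genes called were 0 fewer and 1 more for H3K27me3 and 1 fewer for EZH2; SOX2, SOX7, SOX9, SOX21 and EOMES lost their calls, and TBX5 was called more for EZH2. At scores of 7 or more, EZH2 was listed at 6 genes in KO cells, 4 genes were called fewer for H3K27me3 and 0 more for EZH2 (also 0 at scores of 5 or more), 13.7% of WT H3K27me3 peaks were shared, and 0% (0 of 13) of KO EZH2 peaks overlapped H3K27me3. With equal numbers of peaks, reached by dropping WT peaks only, 1 gene was called fewer and 1 more for H3K27me3, and 2 more for EZH2. Within 5 kb of the gene ends, 37.8% of WT H3K27me3 peaks and 31.4% of WT EZH2 peaks were shared. Where at least 50% of a peak had to overlap, 11.4% of WT H3K27me3 peaks were shared. Without SOX5 and SOX6, 6.25% of WT EZH2 peaks overlapped H3K27me3. The KO minus WT difference in EZH2 bases turned to -185 bp at SOX2 at scores of 7 or more, against 699 bp, and to 268 bp at SOX6 with equal numbers of peaks, against -667 bp.

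Limits are set by the unknown depth, the undefined score, a lower score floor in KO lists, and the shared input of each genotype. Genotype, library and input cannot be told apart.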

Other observations

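Genes that work with SOX and T-box factors were read in the same windows. Over all coding genes, H3K27me3 was listed at 23.2% in KO cells and 26.1% in WT cells, and EZH2 at 18.4% and 27%. For H3K27me3, 6.22% of all genes were called fewer and 3.15% more in KO cells, and for EZH2 5.20% and 1.52%. Differences of this and the following short lists from those shares were not tested. Of 14 mesoderm and heart genes that act with T-box factors, H3K27me3 was listed at 5 in each genotype, and EZH2 at 5 in KO cells and 6 in WT cells. HAND1, a heart and placenta factor, had 3395 bp of EZH2 in KO cells and 3719 bp in WT cells, and 1200 bp of H3K27me3 in KO cells and 235 bp in WT cells. NKX2-5, a heart factor and TBX5 partner, had 2452 bp of EZH2 in KO cells and 1954 bp in WT cells, with 1319 bp of H3K27me3 in KO cells and 0 bp in WT cells. Both were called more for H3K27me3 in KO cells. FGF10, the limb growth factor downstream of TBX5, ran the other way. Its H3K27me3 covered 229 bp in KO cells and 1722 bp in WT cells and was called fewer. Its EZH2 covered 658 bp in KO cells and 0 bp in WT cells and was called more. HAND2 was called fewer for EZH2, with 0 bp in KO cells and 677 bp in WT cells.

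Of 14 neural and neural crest genes that act with SOX factors, H3K27me3 was listed at 8 in KO cells and 9 in WT cells, and EZH2 at 8 in KO cells and 6 in WT cells. PAX7, a muscle stem cell and neural crest factor, had 5500 bp of EZH2 in KO cells and 5877 bp in WT cells. POU3F2, a neural POU factor that pairs with SOX2 and SOX11, had 1327 bp of EZH2 in KO cells and 2837 bp in WT cells. For EZH2, 2 of the 14 genes were called fewer in KO cells (POU3F2 and MITF). NEUROG1 was called more, with 515 bp in KO cells and 0 bp in WT cells. EZH2 bases were higher in KO cells at 6 of the 14 genes and lower at 3. For H3K27me3, 1 gene was called fewer (FOXD3) and 1 more (MITF). Of 8 cartilage matrix genes that SOX9, SOX5 and SOX6 drive, H3K27me3 was listed at 4 in each genotype and EZH2 at 3 in KO cells and 2 in WT cells. COL9A1, a type IX collagen chain, had 19572 bp of H3K27me3 in KO cells and 14708 bp in WT cells. COL2A1, the main cartilage collagen, had 2873 bp of EZH2 in KO cells and 2845 bp in WT cells, nearly equal amounts.

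Of 8 relatives outside the 33 genes, H3K27me3 was listed at 2 in each genotype and EZH2 at 4 in each. SOX3 and TBX22, both on chromosome X, had no peak in any list. Of 6 genes for PRC2 and NEXT subunits, EZH2 was listed at 0 in KO cells and at 2 in WT cells (EZH2 with 161 bp and EED with 173 bp), and H3K27me3 at none in either genotype.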
